A study of Vitis vinifera and Vitis x champinii x Vitis riparia and Vitis cinerea var. helleri x Vitis rupestris with 22 samples.

Results

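The slow anion channel homologs of the grapevine root were examined on 22 one-colour arrays. Their members were the 4 SLAH genes on the study's list of 90 candidate anion transport genes, 1 annotated as SLAH3 and 3 as SLAH1, out of 26241 genes with probes on the array. SLAH3 was GSVIVT01028789001 (VIT_16s0050g01860), with probes CUST_31775 and CUST_31776. The SLAH1 homologs were VIT_12s0059g00860 (GSVIVT01030451001, probes CUST_11231 and CUST_11232), VIT_10s0116g01240 (GSVIVT01012686001, probes CUST_71 and CUST_72) and VIT_18s0001g13440 (GSVIVT01009814001, probes CUST_8961 and CUST_8962). Each of these 8 probes was printed in 11 spots on every array and is described on its own.

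The roots came from 3 grapevines that were grown as rooted leaves in nutrient solution. Cabernet Sauvignon is a cultivar of Vitis vinifera, 140 Ruggeri is a V. berlandieri by V. rupestris rootstock classed as a chloride excluder, and K51-40 is a V. champinii by V. riparia rootstock classed as a chloride accumulator. Each was sampled without added chloride (control) and after 4 days at 50 mM Cl- given as mixed sodium, calcium and magnesium salts (salt). Each treatment had 4 arrays of Cabernet Sauvignon, 4 of K51-40 and 3 of 140 Ruggeri, and each array held the pooled whole roots of 4 rooted leaves of 1 genotype. Fewer cells that express a gene and less of its RNA in each cell cannot be told apart in such roots. All probes were designed on V. vinifera transcripts, so a lower abundance in a rootstock and a poorer match of its transcript to the probe cannot be told apart either.

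SLAC1 and the SLAH proteins are plasma membrane channels that let anions leave the cell. In Arabidopsis, SLAC1 works in guard cells, where abscisic acid signalling through SnRK2 and calcium-dependent protein kinases opens it and the stomata close. SLAH3 conducts nitrate and chloride, and in the Arabidopsis root SLAH1 is expressed in the stele, is silent on its own, and pairs with SLAH3 to release chloride towards the xylem. No sequence of the probes or genes is shown because none was in the files used here.

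The 22 arrays had 72.4 to 82% of their probes well above background and no saturated spot of an SLAH probe. A total of 15 arrays were scanned on a first date and 7 on a second, and all arrays of 140 Ruggeri belonged to the first. Array 3 of the Cabernet Sauvignon control stood apart, because its scanner intensities correlated more closely with K51-40 (r 0.97 to 0.99) than with the other Cabernet Sauvignon arrays (r 0.91 to 0.93). Its processed values behaved like those of Cabernet Sauvignon (r 0.99 to 1.00 against 0.94 with K51-40). Its background calls and the values rebuilt from scanner files are in doubt. So are its scan date (the first) and its slide, which were read from the same scanner file. Results by scan date or slide take both as given. Root markers were not analysed here, and SLAC1, the guard cell member of the family, was well above background on 1 of 22 arrays with CUST_46887 and on 7 of 22 with CUST_46888.

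The question for the salt arrays was whether the channel genes responded to chloride. SLAH3 was measured everywhere, since both probes were well above background on all 22 arrays in all 242 of their spots. Its salt means were above its control means in every variety on both probes, by 0.17 to 0.61 on the log2 scale, but no difference passed the test. Of the 8 SLAH probes, 0 were called in Cabernet Sauvignon, 0 in 140 Ruggeri and 0 in K51-40, where 0.798%, 0.0343% and 2.1% of all 52478 probes were called. Calling a probe required a limma difference of at least 0.5 on the log2 scale (1.41-fold) with a Benjamini-Hochberg adjusted p no greater than 0.05. At an unadjusted p under 0.05 there were 4, 0 and 0 SLAH probes in the same order, against 6674, 4389 and 7843 of all probes. The 4 were both probes of SLAH3, higher with salt, and both probes of VIT_12s0059g00860, lower with salt.

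On CUST_31775, the processed log2 values of SLAH3 in Cabernet Sauvignon were 7.22, 7.43, 7.87 and 7.66 in control roots and 7.43, 8.38, 7.94 and 8.10 in salt-treated roots. In 140 Ruggeri they were 6.78, 6.81 and 7.05 in control and 6.77, 7.15 and 7.72 with salt. In K51-40 they were 6.85, 6.91, 6.89 and 6.50 in control and 7.11, 6.90, 7.04 and 6.77 with salt. Control and salt arrays overlapped in each variety, and the widest spread lay among the salt arrays of 140 Ruggeri and Cabernet Sauvignon.

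On CUST_31776, SLAH3 read 7.59, 7.80, 8.29 and 8.46 in control and 8.0, 8.85, 8.70 and 9.0 in salt-treated Cabernet Sauvignon. The 140 Ruggeri arrays read 8.21, 8.38 and 8.37 in control and 8.30, 8.85 and 9.24 with salt. The K51-40 arrays read 7.84, 7.62, 8.13 and 7.51 in control and 8.20, 7.95, 8.36 and 7.94 with salt. Again control and salt overlapped in every variety. In both rootstocks, where arrays of the same replicate number deviated together, the salt array of a number was above the control array of that number in 3 of 3 pairs of 140 Ruggeri and 4 of 4 pairs of K51-40 on CUST_31776, and in 2 of 3 and 3 of 4 pairs on CUST_31775.

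**Figure D1:**
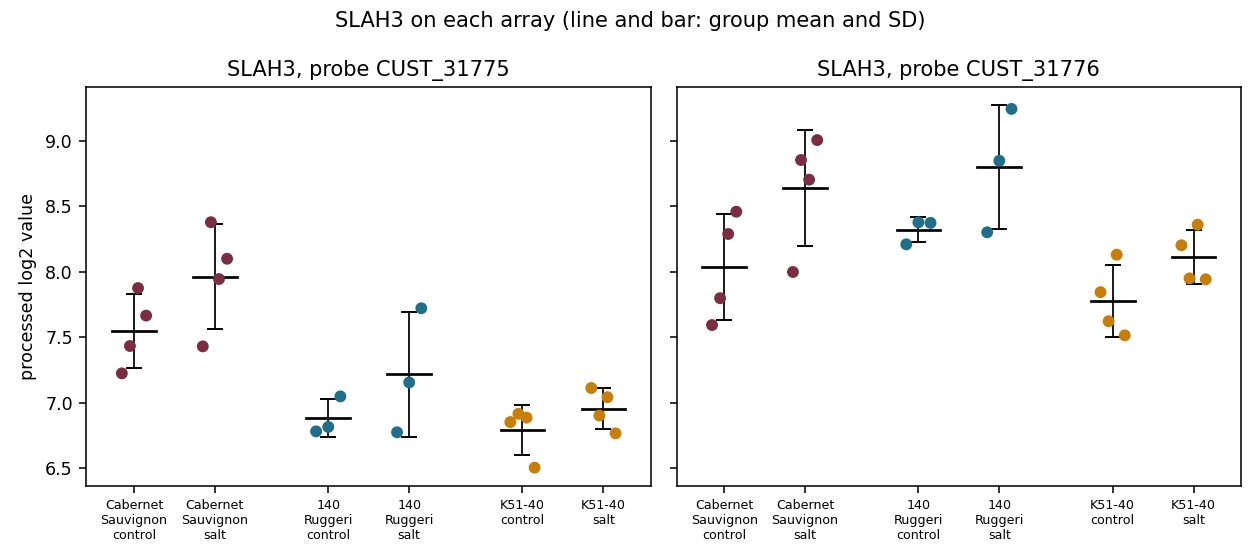
Processed log2 value of SLAH3 (vertical axis) on each array of the 6 groups (horizontal axis) for probes CUST_31775 and CUST_31776. Points are arrays, lines are group means and bars are SD. On CUST_31775 the Cabernet Sauvignon control arrays lie above the control arrays of both rootstocks, and on CUST_31776 the control arrays of 140 Ruggeri lie above those of K51-40.

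The salt response of SLAH3 in Cabernet Sauvignon was 0.41 (SE 0.19, n = 4 and 4, limma adjusted p = 0.365) on CUST_31775 and 0.61 (SE 0.22, adjusted p = 0.226) on CUST_31776. In 140 Ruggeri the difference was 0.34 (SE 0.22, n = 3 and 3, limma adjusted p = 0.751) on the first probe and 0.48 (SE 0.25, adjusted p = 0.653) on the second. K51-40 had the smallest differences, 0.17 (SE 0.19, n = 4 and 4, limma adjusted p = 0.772) and 0.34 (SE 0.22, adjusted p = 0.531). The 95% intervals of these responses, from a model that did not use the replicate numbers, reached from -0.23 to 1.06. By these intervals a response past 1.41-fold could neither be called nor excluded in any variety on CUST_31776. Same-numbered pairs on that probe differed by 0.23 to 0.43 in K51-40 and by 0.09 to 0.87 in 140 Ruggeri. With slide as a term of the model, the K51-40 response on CUST_31775 was 0.02 (SE 0.16) and that of 140 Ruggeri was 0.53 (SE 0.19). Within the first scan date the 3 responses on CUST_31776 were 0.53, 0.48 and 0.34, and within the second, they were 0.40 in Cabernet Sauvignon, where only 1 control array was of that date, and 0.33 in K51-40.

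Averaged over the varieties, the salt response of SLAH3 was 0.31 (SE 0.12, limma adjusted p = 0.165) on CUST_31775 and 0.47 (SE 0.13, adjusted p = 0.0533) on CUST_31776. Neither probe was called, as were 0 of the 8 SLAH probes against 0.705% of all probes, 2 SLAH probes and 8954 of all having an unadjusted p under 0.05. This average was added after the values were seen. CUST_31776 was called in 4 of the 22 fits that left out 1 array, namely without Cabernet Sauvignon control 4, Cabernet Sauvignon salt 1, 140 Ruggeri salt 1 or K51-40 control 3, and with slide as a term (0.51, adjusted p = 0.0189).

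The next comparisons asked how root transcript levels of the channels differed between varieties, first under control conditions. Both rootstocks had less SLAH3 signal than Cabernet Sauvignon on CUST_31775, whereas CUST_31776 called neither difference. For 140 Ruggeri minus Cabernet Sauvignon, 1 of 8 SLAH probes was called against 30% of all probes, and for K51-40 minus Cabernet Sauvignon 2 of 8 against 32.5%. For 140 Ruggeri minus K51-40, 0 of 8 were called against 20.5% of all probes, with 1 SLAH probe and 21731 of all at an unadjusted p under 0.05. The share of SLAH probes was below that of the whole array in each comparison, but 8 probes are too few to set the SLAH genes apart. CUST_8961 and CUST_8962 were well above background on 0 of 22 arrays. CUST_11231, CUST_11232 and CUST_71 were so on 8, 5 and 6 of 22.

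On CUST_31775 the control mean of SLAH3 was 7.55 ± 0.28 (SD, n = 4) in Cabernet Sauvignon, 6.88 ± 0.14 (SD, n = 3) in 140 Ruggeri and 6.79 ± 0.19 (SD, n = 4) in K51-40. The rootstock arrays did not overlap with those of Cabernet Sauvignon. The difference was -0.67 (SE 0.21, limma adjusted p = 0.011) for 140 Ruggeri and -0.76 (SE 0.19, adjusted p = 0.002) for K51-40. The rootstocks differed from each other by 0.09 (SE 0.21, adjusted p = 0.783), with a 95% interval from -0.34 to 0.52. On the first scan date alone the differences from Cabernet Sauvignon were -0.63 in both rootstocks, with limma adjusted p = 0.054 for 140 Ruggeri and 0.0891 for K51-40, and on the second date 2 K51-40 arrays differed from the 1 Cabernet Sauvignon control array by -0.97, which a single array cannot support as a test. With values rebuilt from the scanner files the 140 Ruggeri difference was -0.46 (adjusted p = 0.111), and -0.60 (adjusted p = 0.0285) when the doubtful Cabernet Sauvignon array was left out. The K51-40 difference was also not called on scanner values without batch correction (-0.54, limma adjusted p = 0.0742) or with another background correction, normexp (-0.44, adjusted p = 0.0791). Both of these fits included the doubtful array.

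On CUST_31776 the order of the control means was different. It was highest in 140 Ruggeri at 8.32 ± 0.10 (SD, n = 3), followed by Cabernet Sauvignon at 8.03 ± 0.41 (SD, n = 4) and K51-40 at 7.78 ± 0.27 (SD, n = 4). Neighbours in this order did not differ beyond their spread, with 0.29 (SE 0.24, limma adjusted p = 0.359) for 140 Ruggeri minus Cabernet Sauvignon and -0.26 (SE 0.22, adjusted p = 0.359) for K51-40 minus Cabernet Sauvignon. The 3 arrays of 140 Ruggeri lay above the 4 of K51-40, and their difference of 0.54 (SE 0.24, limma adjusted p = 0.0876) missed the threshold. It was 0.59 (adjusted p = 0.127) within the first scan date, 0.68 (adjusted p = 0.03) with scan date as a term, and 0.66 (adjusted p = 0.0492) without K51-40 control 3.

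Under salt the calls on SLAH3 were similar in direction. Cabernet Sauvignon had the highest CUST_31775 signal at 7.96 ± 0.40 (SD, n = 4), against 7.22 ± 0.48 (SD, n = 3) in 140 Ruggeri and 6.95 ± 0.15 (SD, n = 4) in K51-40. The difference of K51-40 was -1.01 (SE 0.19, limma adjusted p = 0.000124), without overlap of the arrays, and it was called within the first scan date (-0.90, adjusted p = 0.0305) and within the second (-1.12, adjusted p = 0.000857). That of 140 Ruggeri was -0.75 (SE 0.21, limma adjusted p = 0.00547), with overlapping arrays, and it lost the call without 140 Ruggeri salt 1 (-0.52, adjusted p = 0.0608) and within the first scan date (-0.69, adjusted p = 0.0682). These were the 1 of 8 SLAH probes called for each rootstock minus Cabernet Sauvignon under salt, where 27.5% of all probes were called for 140 Ruggeri and 33.6% for K51-40.

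CUST_31776 was the 1 SLAH probe of 8 called between the rootstocks under salt, where 21.2% of all probes were called. Its means were 8.80 ± 0.47 (SD, n = 3) in 140 Ruggeri, 8.64 ± 0.45 (SD, n = 4) in Cabernet Sauvignon and 8.11 ± 0.20 (SD, n = 4) in K51-40. On this probe the signal was higher in 140 Ruggeri than in K51-40 by 0.68 (SE 0.24, limma adjusted p = 0.0298), although the arrays of the rootstocks overlapped, while CUST_31775 gave 0.26 (SE 0.21, adjusted p = 0.362). The call was lost without 140 Ruggeri salt 2 (0.66, adjusted p = 0.0782), 140 Ruggeri salt 3 (0.46, adjusted p = 0.198), K51-40 salt 2 (0.63, adjusted p = 0.0713) or K51-40 salt 4 (0.63, adjusted p = 0.0682), and within the first scan date (0.72, adjusted p = 0.0557). K51-40 minus Cabernet Sauvignon was -0.53 (SE 0.22, limma adjusted p = 0.0502) on this probe, just outside the threshold, and it was called in 7 of the 22 fits that left out 1 array.

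**Figure D2:**
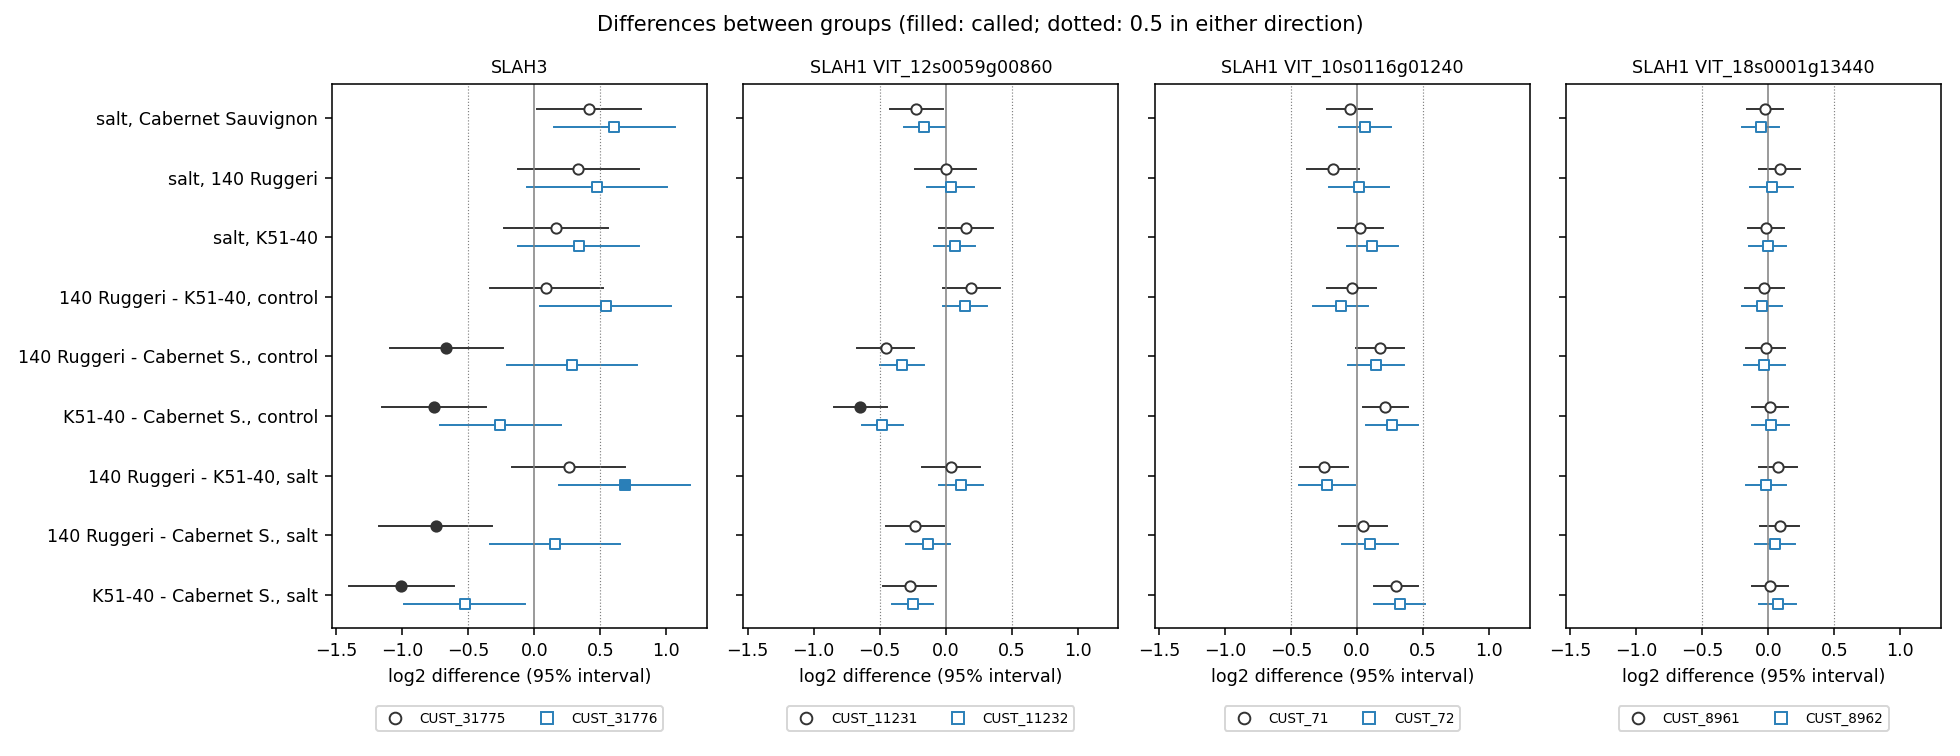
Differences in processed log2 value (horizontal axis) of the 4 SLAH genes for the 3 salt responses (salt minus control) and the 6 differences between varieties (vertical axis), with 95% intervals from limma. Filled symbols are called, circles and squares are the probes of a gene, and dotted lines mark 0.5 in either direction. Called symbols are seen for SLAH3 between varieties and for 1 probe of VIT_12s0059g00860, and for no salt response.

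The SLAH3 probes thus ranked the varieties differently, and the difference between them within an array, CUST_31776 minus CUST_31775, was compared after this had been seen. The size of this difference has no meaning as a level, since probes bind with unequal strength, so only its variation over the arrays is described. It was 0.58 ± 0.21 (SD, n = 8) in Cabernet Sauvignon, 1.07 ± 0.19 (SD, n = 8) in K51-40 and 1.51 ± 0.12 (SD, n = 6) in 140 Ruggeri. The 140 Ruggeri arrays ranged from 1.33 to 1.69 and lay above all K51-40 arrays, which ranged from 0.71 to 1.32 and overlapped with Cabernet Sauvignon at 0.37 to 0.91.

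In exact two-sided permutation tests within treatment, adjusted over the 4 comparisons made, the probe difference was larger in 140 Ruggeri than in Cabernet Sauvignon by 0.93 (p = 0.000816, the smallest that the rearrangements allow, adjusted p = 0.00163). It was larger in 140 Ruggeri than in K51-40 by 0.44 (exact permutation p = 0.00163, adjusted p = 0.00218) and in K51-40 than in Cabernet Sauvignon by 0.49 (p = 0.000816, adjusted p = 0.00163). Salt minus control within variety was smaller at 0.17 (exact permutation p = 0.0213, adjusted p = 0.0213), in a test that did not use the replicate numbers, and it was positive in 3 of 3 same-numbered pairs of 140 Ruggeri and 4 of 4 of K51-40. The differences on the first scan date alone were 1.06, 0.55, 0.51 and 0.17 in the same order. The tests between varieties treated control and salt arrays of the same number as independent. Same-numbered arrays of both rootstocks deviated together, so these p-values can be too small. No test with the replicate number as the unit was run. The p-values also describe the pattern that prompted the comparison, on the same arrays, and are no independent evidence of it.

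**Figure D3:**
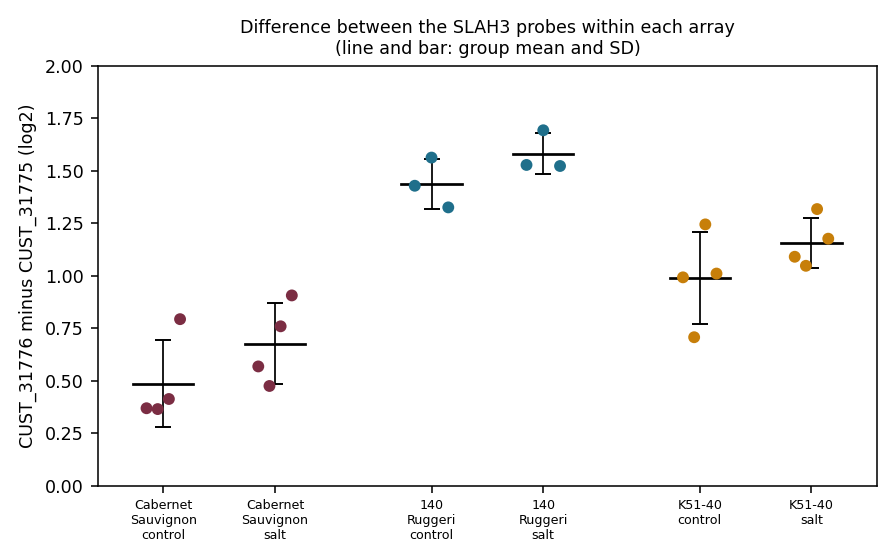
Difference between the SLAH3 probes within each array (vertical axis, CUST_31776 minus CUST_31775, log2) for the 6 groups (horizontal axis). Points are arrays, lines are group means and bars are SD. The 140 Ruggeri arrays, from 1.33 to 1.69, lie above all others, and the Cabernet Sauvignon arrays are lowest on average.

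Among the SLAH1 homologs, VIT_12s0059g00860 was detected mainly in Cabernet Sauvignon. CUST_11231 was well above background on 3 control and 4 salt arrays of this variety, on 1 salt array of 140 Ruggeri and on no array of K51-40. CUST_11232 was above background on 3 control and 2 salt arrays of Cabernet Sauvignon and on no rootstock array. The single Cabernet Sauvignon control array below background on both probes was the doubtful array 3.

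On CUST_11231 the control arrays read 5.86, 5.65, 5.72 and 5.81 in Cabernet Sauvignon. The means were 5.76 ± 0.10 (SD, n = 4) there, 5.31 ± 0.04 (SD, n = 3) in 140 Ruggeri and 5.11 ± 0.03 (SD, n = 4) in K51-40, and the Cabernet Sauvignon arrays lay above those of both rootstocks on either probe. No order is given for the rootstocks, neither of which was above background. K51-40 was lower than Cabernet Sauvignon by a log2 difference of -0.65 (SE 0.10, limma adjusted p = 7.33e-06), the only called difference of a SLAH1 homolog. It was called within the first scan date at -0.63 (adjusted p = 0.00164), and on the second, with 1 Cabernet Sauvignon control array, it was -0.70. Its size varied over values rebuilt from the scanner files, which included the doubtful Cabernet Sauvignon control 3. Scanner values without batch correction (-0.50) and normexp (-0.31) put it under the 0.5 minimum. The 75th percentile scaling of the background-subtracted signal gave -1.84 (limma adjusted p = 0.0177) and, on CUST_11232, -1.63 (adjusted p = 0.016). What the scaling and that array each contributed to these values was not tested. The second probe gave -0.48 (SE 0.07, adjusted p = 1.21e-05), just under the 0.5 minimum, and it was called without Cabernet Sauvignon control 3 (-0.50). Since no K51-40 array was above background, folds are given as bounds on the deposited values. The mean signal in Cabernet Sauvignon was at least 1.54-fold higher by CUST_11231 and at least 1.36-fold by CUST_11232. These bounds leave out sampling error and do not hold for the other scalings.

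For 140 Ruggeri minus Cabernet Sauvignon under control conditions the differences of this homolog were -0.45 (SE 0.10, limma adjusted p = 0.0011) and -0.33 (SE 0.08, adjusted p = 0.00169), under the 0.5 minimum. The mean signal in Cabernet Sauvignon was 1.37-fold higher on CUST_11231, an estimate, since the bound there equalled the fold of the means. On CUST_11232 it was at least 1.20-fold higher. Each bound sets the mean of the brighter group against the mean of the dim group, in which every array counts with the higher of the probe's own value and the lowest signal well above background. It leaves out sampling error and holds for the deposited values only.

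Under salt the measured differences between the varieties were smaller, but this change was itself not called. In Cabernet Sauvignon the salt arrays of CUST_11231 read 5.60, 5.30, 5.61 and 5.65, overlapping with control, and the salt response was -0.22 (SE 0.10, limma adjusted p = 0.33) on this probe and -0.16 (SE 0.07, adjusted p = 0.362) on CUST_11232. K51-40 minus Cabernet Sauvignon was -0.27 (SE 0.10, limma adjusted p = 0.0226) and -0.25 (SE 0.07, adjusted p = 0.00765), both under the 0.5 minimum, with bounds of at least 1.19-fold and at least 1.11-fold. On the first scan date alone it was -0.10 (adjusted p = 0.638) and -0.19 (adjusted p = 0.222). That date included K51-40 salt 1, which read 5.52 on CUST_11231 with an SD of 0.61 over its 11 spots. The median spot SD of this probe was 0.14, and only 2 of those 11 spots were well above background.

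VIT_10s0116g01240 read higher in K51-40 than in Cabernet Sauvignon, the reverse of VIT_12s0059g00860, with differences whose size depended on the scaling. CUST_72 was well above background on all 22 arrays, and CUST_71 on 6, none of them from Cabernet Sauvignon. The control means on CUST_72 were 5.58 ± 0.03 (SD, n = 4) in Cabernet Sauvignon, 5.72 ± 0.11 (SD, n = 3) in 140 Ruggeri and 5.84 ± 0.11 (SD, n = 4) in K51-40, and under salt they were 5.64 ± 0.06, 5.74 ± 0.12 and 5.96 ± 0.22. The arrays of K51-40 lay above those of Cabernet Sauvignon on both probes in both treatments. The share of all probes whose arrays separate in this way was not counted, here or above. Between these varieties 32.5% of all probes were called in control roots and 33.6% with salt.

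K51-40 minus Cabernet Sauvignon on CUST_72 was 0.27 (SE 0.09, limma adjusted p = 0.0229) in control roots and 0.32 (SE 0.09, adjusted p = 0.00645) with salt. CUST_71 gave 0.22 (SE 0.08, limma adjusted p = 0.0329) and 0.29 (SE 0.08, adjusted p = 0.00434), or 1.16-fold and 1.23-fold. These folds are estimates and not lower limits, since the bound on this probe equalled the fold of the means. The 95% intervals of the log2 differences began at 0.045 in control roots and 0.125 with salt. CUST_71 was well above background on 2 of 4 K51-40 arrays in each treatment. None of the 4 differences reached the 0.5 minimum. With 75th percentile scaling of the background-subtracted signal they were 0.89 (limma adjusted p = 0.0349) and 1.20 (adjusted p = 0.00324) on CUST_71, and 0.50 (adjusted p = 0.0611) and 0.75 (adjusted p = 0.00386) on CUST_72, so 3 of the 4 were called there. Under salt 140 Ruggeri was below K51-40 by a log2 difference of -0.25 (SE 0.09, adjusted p = 0.0329) on CUST_71 and -0.23 (SE 0.10, adjusted p = 0.0938) on CUST_72. Salt responses of this homolog ranged from -0.18 to 0.12 over both probes and the 3 varieties. On the second scan date alone, the K51-40 minus Cabernet Sauvignon difference of CUST_72 under salt was 0.15 (2 arrays each, limma adjusted p = 0.349), and that in control roots, against 1 Cabernet Sauvignon array, was 0.20.

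VIT_18s0001g13440 was not measured in these roots at this sensitivity. CUST_8961 was well above background in 0 of 242 spots and CUST_8962 in 2 of 242, and on 0 of the 22 arrays by the majority of spots. The processed values lay between 4.94 and 5.17 on the first probe and between 4.77 and 5.06 on the second, so no fold is given for any comparison of this homolog.

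**Figure D4:**
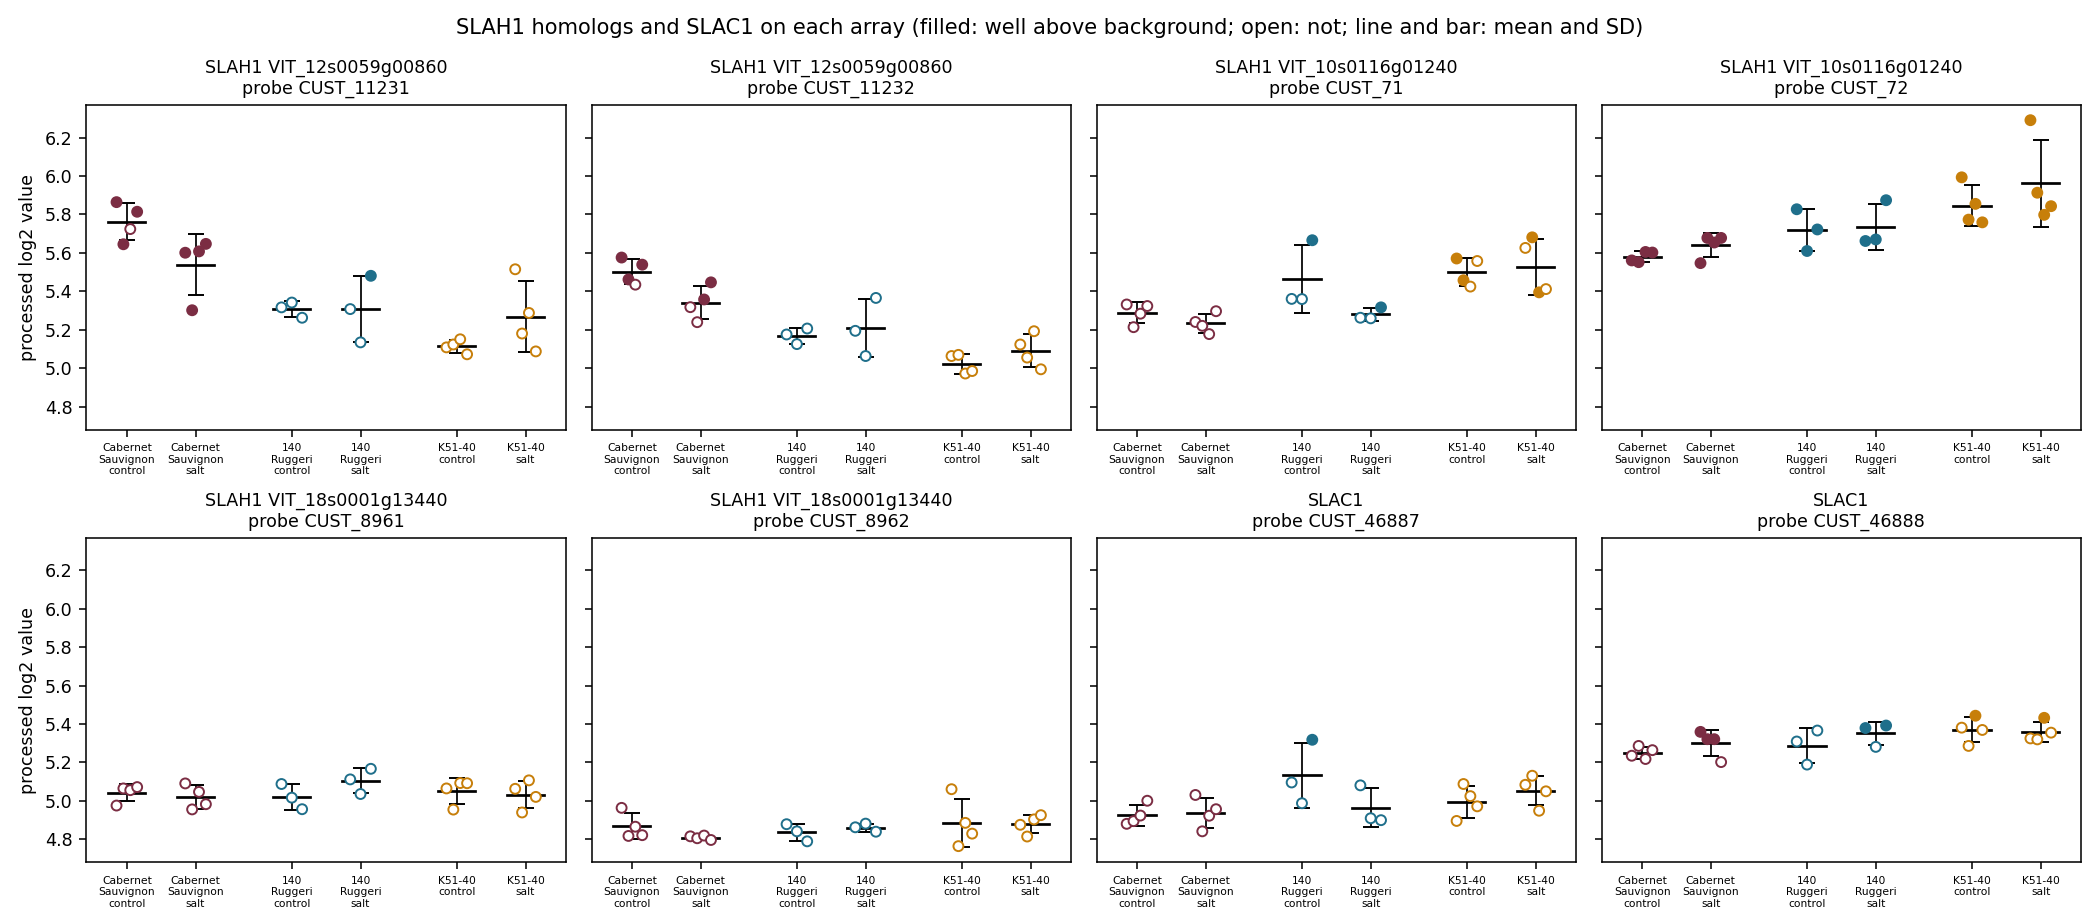
Processed log2 values (vertical axis) of the SLAH1 homologs and of SLAC1 on each array of the 6 groups (horizontal axis), 1 panel per probe. Filled points are well above background and open points are not, lines are group means and bars are SD. VIT_12s0059g00860 is filled almost only in Cabernet Sauvignon, CUST_72 of VIT_10s0116g01240 is filled on all 22 arrays, and VIT_18s0001g13440 on none.

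Whether the salt response of a channel gene differed between varieties was tested directly. Of the 8 SLAH probes, 0 were called for 140 Ruggeri against K51-40, where 0.112% of all probes were called, with 0 SLAH probes and 5080 of all at an unadjusted p under 0.05. Against Cabernet Sauvignon, 0 were called for 140 Ruggeri beside 0.00953% of all probes, with 0 and 1794 at an unadjusted p under 0.05. For K51-40 against Cabernet Sauvignon 0 were called beside 0.673% of all probes, with 2 and 6791 at an unadjusted p under 0.05. Those 2 probes were both of VIT_12s0059g00860, at 0.38 (SE 0.14, limma adjusted p = 0.231) and 0.23 (SE 0.11, adjusted p = 0.357). Neither was well above background on any K51-40 array, and the first, CUST_11231, had uneven spots on K51-40 salt 1. Fits that left out 1 array gave 0.29 to 0.44 on CUST_11231. For SLAH3 the responses of the rootstocks differed by 0.17 (SE 0.29, limma adjusted p = 0.918) and 0.14 (SE 0.34, adjusted p = 0.946). In this model, which did not use replicate numbers, differences of the size of the responses themselves were not detectable with 3 and 4 arrays.

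The SLAH genes were set beside the other 85 genes of the same list, which hold 8 chloride channel genes of the CLC family, 53 nitrate and peptide transporter genes of the NRT/POT family and 24 others. Of their 170 probes, 0 were called for salt in Cabernet Sauvignon and 0 in 140 Ruggeri, beside 0.798% and 0.0343% of all probes. At an unadjusted p under 0.05 there were 28 and 9, against 6674 and 4389 of all 52478 probes. In K51-40 salt called 5 higher and 2 lower, from 4 genes, beside 2.1% of all probes. The 8 SLAH probes, of which 0 were called there, are too few for a contrast with the list. Between the rootstocks under control conditions 18 probes were higher in 140 Ruggeri and 13 lower, from 19 genes, beside 20.5% of all probes called. The median salt response of the 8 SLAH probes was -0.04 in Cabernet Sauvignon, 0.03 in 140 Ruggeri and 0.09 in K51-40, and that of all probes was 0.00, 0.00 and 0.01. Of the SLAC/SLAH genes, 2 of 5 had a probe well above background on all arrays, as had 6 of 8 CLC genes, 36 of 53 NRT/POT genes and 16 of 24 others.

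**Figure D5:**
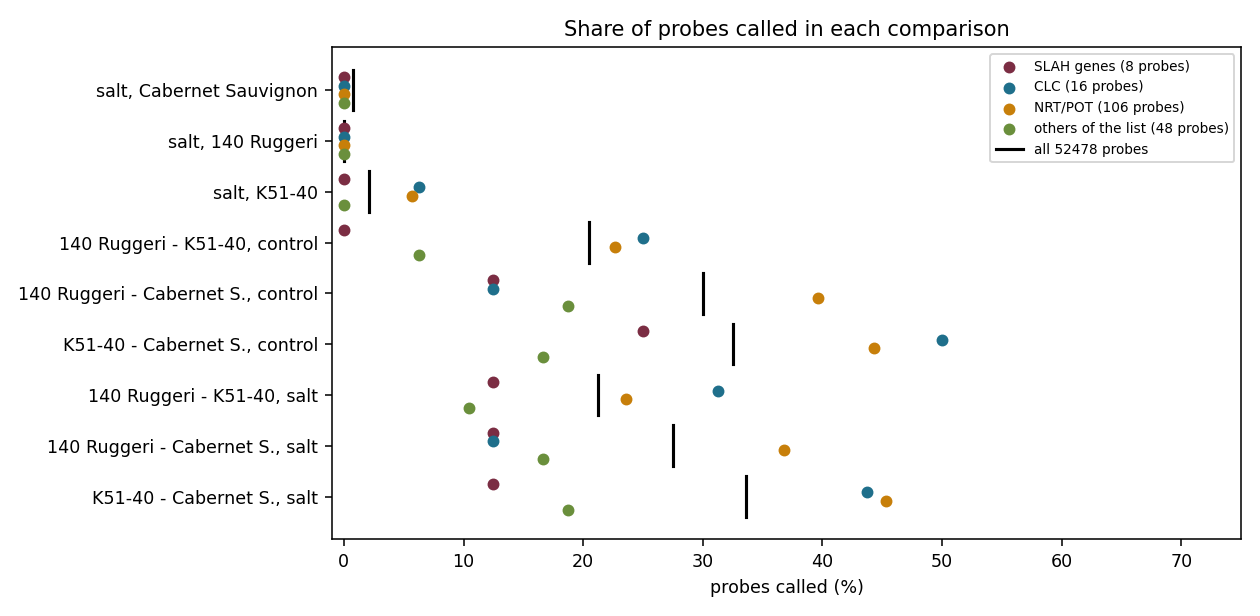
Share of probes called (horizontal axis, %) in the 3 salt responses (salt minus control) and 6 differences between varieties (vertical axis). Points stand for the SLAH genes and 3 other classes of the anion transport list, and black lines for all 52478 probes. The SLAH genes have no called probe for salt and lie below the line in each comparison between varieties. They have only 8 probes, several of them not above background on most arrays, too few to set them apart.

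Genes that the study proposes as possible regulators of these channels were represented by 8 genes with 16 probes. The study had picked these genes from these samples for differing between the rootstocks. Their 7 probes higher and 7 lower in 140 Ruggeri than in K51-40 under control conditions are therefore not independent evidence. For salt, 1 of the 16 probes was called in Cabernet Sauvignon, 0 in 140 Ruggeri and 0 in K51-40, beside 0.798%, 0.0343% and 2.1% of all probes. The called probe belonged to the abscisic acid receptor PYL1, which binds the hormone and inhibits protein phosphatases that hold the kinases of SLAC1 inactive, and which fell by 0.53 (SE 0.09, limma adjusted p = 0.00527) on CUST_15333. The other PYL1 probe, CUST_15332, gave -0.49 (SE 0.11, adjusted p = 0.0358), under the 0.5 minimum.

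Over the 22 arrays, SLAH3 on CUST_31775 was most like GSVIVT01031578001 among 40493 probes well above background on at least 11 arrays (Pearson r 0.95, and 0.86 after group means were removed). CUST_31776 was most like another gene, GSVIVT01036885001 (r 0.92, and 0.91 within groups). These correlations share arrays, normalization and scan dates, the files do not name the genes, and neither gene is on the anion transport list.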

How the data were processed

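Members and gene lists were chosen with earlier results of these data known. The authors deposited scanner intensity per spot (Agilent Feature Extraction 10.7.3, per the submitters' processing notes), as raw median signals and as a background-subtracted processed signal, with a flag score per spot for being well above background. They also deposited the table of log2 values used here, made by log2 transformation and quantile normalization of the Cy3 median signals with ComBat correction for hybridisation date. That table was read as given, so its batch correction had already used the arrays compared. Differences are relative to all probes, and the number of arrays limits their precision.

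Spots of a probe were averaged. A model with 1 mean for each of the 6 groups was fitted to 52478 probes on all 22 arrays in limma 3.58.1 (R 4.3.3, with the data.table package in version 1.17.8), with Benjamini-Hochberg adjustment over all probes, a false discovery rate of 0.05 and a minimum of 0.5. A probe was well above background on an array if most of its spots were marked so. Replicates were biological replicates according to the study. Named genes were all 4 members with both probes, SLAC1, the list and regulators as counts with called examples, and the probes most correlated with a member. Array identifiers could not be matched to the gene names at hand. Same-numbered control and salt arrays deviated together in 140 Ruggeri (r 0.24 to 0.35) and K51-40 (r 0.31 to 0.43). The arrays of each such pair shared a scan date, and the labels do not say what a number marks. A pairing of the plants and a shared batch therefore cannot be told apart. Permutation tests and figures used Python 3.11.15, numpy 2.4.6, pandas 2.3.3 and matplotlib 3.10.9. The fit was tested on simulated data.

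Alternatives were other scalings and batch terms, each scan date, slide, fewer groups in the fit, a background filter, the median over spots, no minimum difference, replicate blocks and leaving out each array. Chosen once the data had been seen were normexp (offset 50) on the median signal, a fit of scanner values without 1 array, a block over all arrays, the mean salt response and the probe difference.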

Additional observations from a re-analysis of the deposited data

Results flagged for a closer look

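Of 32 groups of 4 arrays examined for single arrays far from the rest, 3 held one, and chance gives about 1 in 20 groups. SLAH3 on CUST_31775 read 6.50 in K51-40 control 4, below the other control arrays of K51-40. SLAH1 VIT_12s0059g00860 on CUST_11231 read 5.30 in Cabernet Sauvignon salt 2, below the other salt arrays of that variety. SLAH1 VIT_18s0001g13440 on CUST_8961 read 4.98 in Cabernet Sauvignon control 1, where the probe was not well above background on any array. No difference between the salt responses of varieties was called for an SLAH probe.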

How the results depend on the processing

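Of 3788 values of single probes under 38 alternatives, 3713 kept their side of the threshold, 20 lost it, 55 gained it, and 0 of the called values changed sign. The numbers below are SLAH probes called, of 8. For 140 Ruggeri minus K51-40 in control roots the count went from 0 to 1 with scanner values and ComBat (also without Cabernet Sauvignon control 3), scanner values with scan date, 75th percentile scaling, normexp, deposited values with scan date, only the groups compared, and the replicate block over all arrays. For 140 Ruggeri minus Cabernet Sauvignon in control roots it went from 1 to 0 with all scanner scalings on all arrays (ComBat, no batch correction, scan date, 75th percentile, normexp) and on the first scan date, and to 3 without a minimum difference. For K51-40 minus Cabernet Sauvignon in control roots it went from 2 to 0 with no batch correction and normexp, to 1 with scanner values and scan date and on the first date, and to 5 without a minimum. Under salt, the rootstock count of 1 was 0 on the first date, 3 with 75th percentile scaling and 2 without a minimum, 140 Ruggeri minus Cabernet Sauvignon was 0 on the first date, and K51-40 minus Cabernet Sauvignon went from 1 to 2 with scanner ComBat (also without that array), scan date, slide, the second date, only the groups compared, the background filter, the block over all arrays and the median over spots, to 5 without a minimum and to 6 with 75th percentile scaling. The mean salt response went from 0 to 1 with slide. Leaving out 1 array gave 0 to 1 for 140 Ruggeri minus K51-40 in either treatment, 0 to 1 for 140 Ruggeri minus Cabernet Sauvignon under salt, 1 to 2 for K51-40 minus Cabernet Sauvignon under salt, 2 to 3 in control roots, and 0 to 1 for the mean salt response. The cause of these shifts was not tested, apart from the minimum. The replicate block within each variety called SLAH3 CUST_31776 for salt in Cabernet Sauvignon (1 probe, 0.61, SE 0.12, limma adjusted p = 0.0199). Same-numbered arrays of that variety did not all deviate together (r -0.35 to 0.37). The block changed no other call. Over all probes, calls for salt were 419 in Cabernet Sauvignon, 18 in 140 Ruggeri and 1102 in K51-40, and 824, 82 and 1623 with that block, and for K51-40 minus Cabernet Sauvignon in control roots 17057, 10446 with normexp and 26390 without a minimum. Normexp on the mean signal could not be run, because that column was not in the files used. Signal over background limits the SLAH1 homologs except on CUST_72.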
